A study of Arabidopsis thaliana with 24 samples.

Results

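The transcripts encoded in the chloroplast genome were described in leaves of Arabidopsis thaliana, as the 133 rows of the deposited count table whose locus identifier starts with ATCG, of 33610 rows in all. Of these, 88 are protein-coding, 37 are transfer RNA (tRNA) and 8 are ribosomal RNA (rRNA) rows. The deposited table pairs identifiers with no names, and the reference gene table used here matched 0 of the 133 identifiers. Symbols and the functional classes therefore follow the standard chloroplast locus nomenclature and are given as background beside the identifier. Of the 6 identifiers for which the RefSeq annotation notes a product, 5 had the product that this nomenclature gives, and ATCG00430, called ndhK here, was noted as photosystem II reaction center protein G, an older name for that gene. In all, 121 of the 133 names stood in the same order along the RefSeq chloroplast genome. Genes in the inverted repeat have 2 near-identical copies that can share or exchange reads, so each copy's value is uncertain in that respect, and rows are counted rather than genes.

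The study grew 2 ecotypes, the Italian Castelnuovo-12 (IT) and the Swedish Rodasen-47 (SW), with a 9-h photoperiod at 100 µmol photons per square metre and second (low light, LL) or 1000 (high light, HL). Leaves were held at 25 °C by day and 20 °C by night in the warm regimes (W). In the cool regimes (C) they were at 16 °C and 12.5 °C in low light, and at 14 °C and 12.5 °C in high light. A group name joins ecotype and regime, as in IT_HLC. Each of the 8 groups had 3 libraries, from rRNA-depleted RNA of 2 leaf discs of 0.73 square cm each, cut at the end of the 15-h night from the youngest of the fully developed leaves. All groups are unmodified plants, and no transgene is named in the labels. The replicates are called biological, but it is not stated that they were different plants or were grown at different times, so each p-value describes variation among these libraries, part of which may be technical. Summed counts of 4 leaf mesophyll markers, among them RBCS1A and LHCB1.3, lay between 8412 and 18650 CPM (counts scaled to a common library total) in the 24 libraries, and the root markers EXP7, COBL9 and PIN2 were at the table's lowest value of 1 in every library.

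The chloroplast genome encodes the reaction-centre proteins of both photosystems and part of the cytochrome b6f complex, the ATP synthase, the NDH complex of cyclic electron flow, the large subunit of Rubisco, and part of the ribosomes and the RNA polymerase of the organelle. Other subunits of these assemblies come from the nucleus, so each complex draws on 2 genomes. Chloroplast genes are transcribed in groups by a plastid-encoded polymerase, whose promoter recognition depends on nuclear sigma factors, and by phage-type nuclear-encoded polymerases. The accumulation of their messengers also depends on processing, stabilization and decay by nuclear RNA-binding proteins and nucleases.

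Several libraries went against their ecotype labels. Of the genes outside the chloroplast genome, 39 had at least 50 counts in every SW_LLW library and at most 3 in every IT_LLW library, and 35 had the opposite pattern. The first of these transcript sets was present in IT_LLC, IT_HLC and SW_LLC, where 74.4% or more of its genes reached 50 counts and none of the second set did, except in IT_HLC replicate 3. The second set was present in IT_HLW, SW_HLW and SW_HLC, with 74.3% or more of its genes reaching 50 counts and none of the first set. IT_HLC replicate 3 carried both, with 61.5% of the first set and 31.4% of the second. The groups are called by their labels throughout. Library codes in the labels also form 2 series, one with letters that holds every LLW and HLC library and one with numbers that holds every LLC and HLW library. HLC against LLW is therefore the comparison that lies within 1 series and has 1 group of each transcript set on each side, and it is described first and in most detail.

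Chloroplast rows held 54.8% to 68.0% of all counts, with a median of 62.0% over 24 libraries whose totals ran from 10967425 to 17467653. The lowest share of the 8 groups was 57.4% ± 2.4 (SD, n = 3) in SW_HLC, next to 57.7% ± 2.1 in IT_HLC, and these do not differ beyond their spread. The highest was 66.1% ± 1.1 in IT_LLC, followed by 64.4% ± 3.2 in IT_HLW, 63.0% ± 0.8 in SW_HLW and 62.7% ± 0.5 in IT_LLW. In SW_LLC the share was 60.6% ± 0.6 and in SW_LLW 59.2% ± 2.9. Per library, IT_HLC (55.3% to 59.0%) lay below IT_LLW (62.4% to 63.2%), while SW_HLC (54.8% to 59.6%) overlapped SW_LLW (57.5% to 62.6%). In such bulk samples, fewer chloroplast-rich cells and less chloroplast RNA per cell cannot be told apart.

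The rRNA part of this share varied most between libraries of a group. Plastid rRNA rows held 0.237% of all counts in IT_HLC replicate 2 and 19.4% in IT_HLC replicate 3, and 12.03% in SW_HLW replicate 3, with a median of 1.01% over all libraries. Nuclear rRNA rows were also highest in those libraries, at 7.87% in IT_HLC replicate 3 and 6.12% in SW_HLW replicate 3, against a median of 0.466%. The libraries were depleted of rRNA, so these rows measure what the depletion left, and its part in any difference of the rRNA rows was not tested. Plastid tRNA rows held 0.0977% to 0.195% of the counts. For these reasons the balance among chloroplast genes is given per total of the 88 protein-coding rows, called plastid messengers below. Plastid messengers alone held 39.6% to 67.1% of all counts, the lowest in IT_HLC replicate 3.

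**Figure D1:**
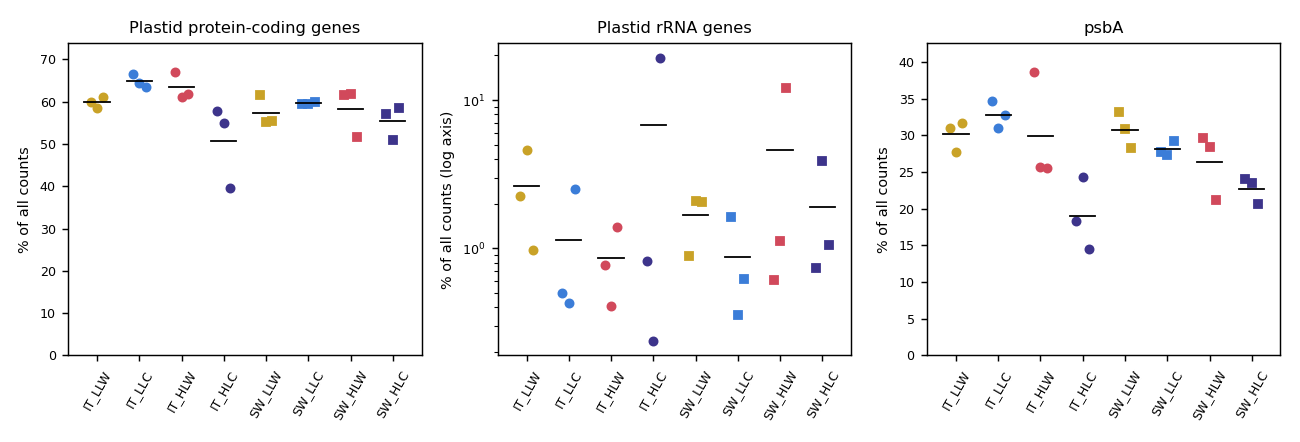
Share of all counts in each of the 24 libraries (points; circles IT, squares SW; coloured by regime) with the group mean (line), for plastid protein-coding genes, plastid rRNA genes on a log axis, and psbA. Plastid rRNA reaches 19.4% in 1 IT_HLC library and 12.03% in 1 SW_HLW library, and psbA alone runs from 14.5% to 38.7% of all counts.

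Within the plastid messengers the balance between the photosystems differed between regimes. Photosystem I genes held 7.32% ± 0.98 (SD, n = 6) of plastid messenger counts in LLW and 15.3% ± 1.7 in HLC, and the libraries did not overlap (6.001% to 8.45% against 13.1% to 17.6%). Photosystem II genes held 63.3% ± 2.6 in LLW and 52.1% ± 5.4 in HLC, again with no overlap (59.2% to 66.8% against 44.8% to 57.9%). Most photosystem II counts were those of psbA. When every gene had equal weight, the log2 ratio of HLC to LLW was 0.36 for photosystem I and 0.01 for photosystem II, which is no longer negative.

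The remaining groups had means between 7.09% and 11.98%, within or above the LLW range and below every HLC library. The photosystem I share was 11.7% ± 0.2 (SD, n = 3) in SW_LLC and 11.98% ± 0.98 in SW_HLW, and 7.09% ± 0.72 in IT_LLC and 8.81% ± 2.29 in IT_HLW. From low to high the order of group means was SW_LLW, IT_LLC, IT_LLW, IT_HLW, SW_LLC, SW_HLW, SW_HLC and IT_HLC. The first 4 of these, between 6.67% and 8.81%, overlap in their libraries, as do SW_LLC with SW_HLW and SW_HLC with IT_HLC. In IT_HLW replicate 1, which had the highest psbA share of all libraries, photosystem I held 6.17%, against 10.1% or more in the other IT_HLW libraries.

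Among the smaller classes, cytochrome b6f genes held 2.15% ± 0.11 (SD, n = 6) in LLW and 2.52% ± 0.09 in HLC, with no overlap, but without psbA in the denominator the log2 ratio turned from 0.23 to -0.09. Genes of the small ribosomal subunit held 1.48% ± 0.13 and 2.09% ± 0.25, also without overlap, at log2 ratios of 0.50 with psbA and 0.16 without it. The HLC and LLW libraries overlapped for ATP synthase (3.28% ± 0.24 in LLW and 4.08% ± 0.79 in HLC), the NDH complex (2.03% ± 0.26 and 2.10% ± 0.27), rbcL (17.2% ± 1.4 and 18.4% ± 2.3) and the polymerase genes (0.438% ± 0.052 and 0.548% ± 0.119). They also overlapped for the large ribosomal subunit, at 0.695% ± 0.080 and 0.649% ± 0.154, and for the remaining assembly, protease and lipid genes, at 2.11% ± 0.27 and 2.32% ± 0.34. These shares are described without a test.

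**Figure D2:**
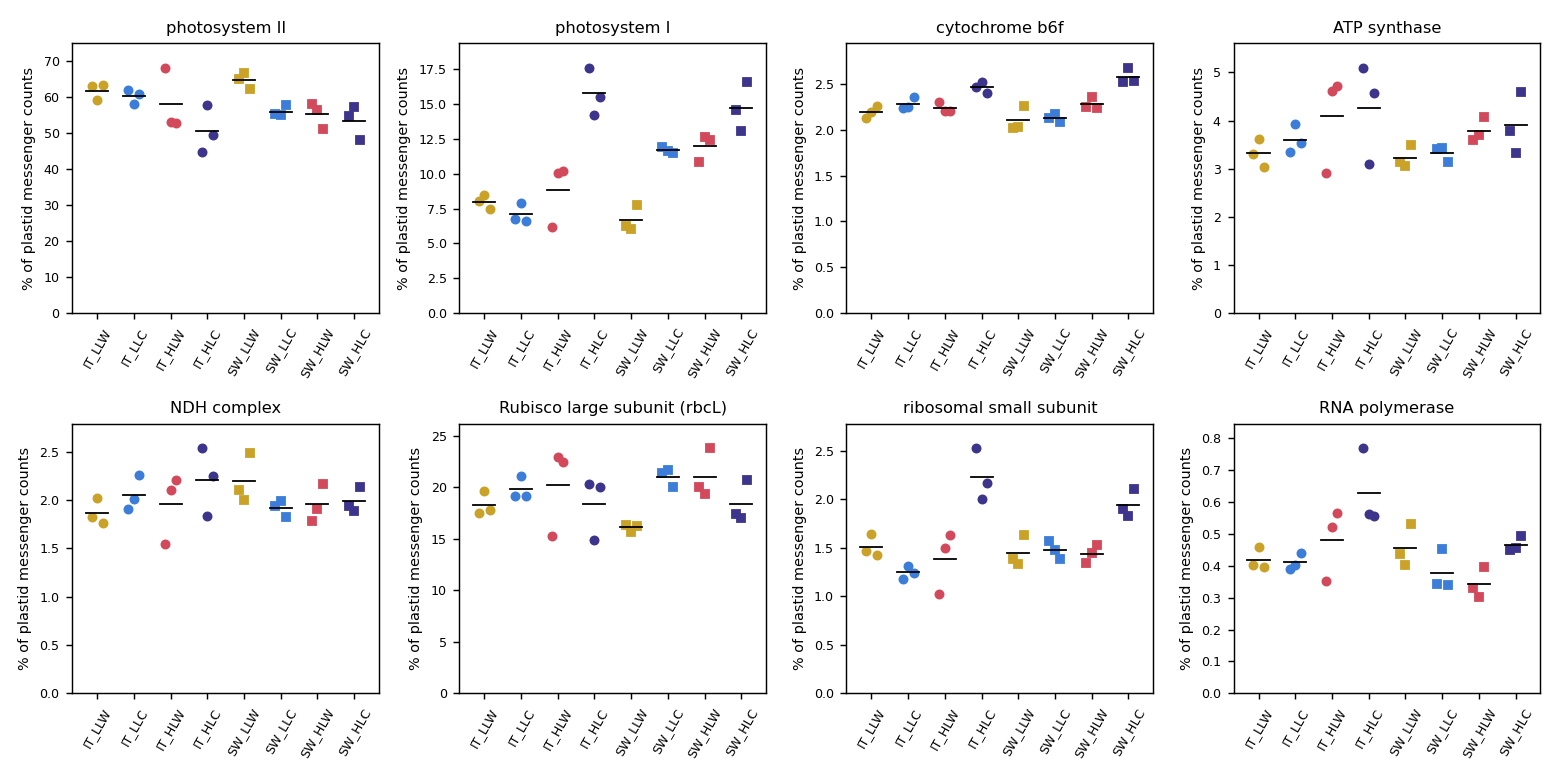
Share of plastid messenger counts held by 8 classes of chloroplast genes in each library (points; circles IT, squares SW; coloured by regime), with the group mean (line). Photosystem I lies at 6.001% to 8.45% in LLW and 13.1% to 17.6% in HLC, while rbcL and NDH shares overlap between these regimes.

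Single genes were tested on the whole table with edgeR's quasi-likelihood test and the plastid messenger total of each library as the scale, and a gene was called at a Benjamini-Hochberg adjusted p below 0.05. From LLW to HLC, 27 of the 133 chloroplast rows were called higher (20.3%) and 18 lower (13.5%), beside 43.9% and 15.2% of all 17714 genes tested. On this scale the median change of all genes was 0.33 (log2), and that of the 88 plastid messengers 0.07, close to 0 as the scale implies. The split of the calls followed the scale. With TMM among the plastid messengers it was 18 higher and 26 lower, beside 33.7% and 16.5% of all genes. Per all plastid counts it was 16 and 19, beside 37.2% and 15.6%. Without psbA it was 6 and 59, beside 23.8% and 24%, and with TMM over all genes 5 and 49, beside 28.5% and 27.3%. The median of the plastid messengers was -0.04, 0.02, -0.26 and -0.23 on these scales in turn. Without IT_HLC replicate 3 and SW_HLW replicate 3, the libraries highest in plastid rRNA, the split on the plastid messenger scale was 25 and 14, beside 41.7% and 14.8% of all genes. Some markers of other leaf cell types, 3 genes for each type, also moved with the regime. Of the xylem markers VND7 reached at most 4 counts in any library, and of the epidermis markers PDF1 at most 2. The sums of these 2 types therefore rest on their other genes. Summed xylem markers stood at 2.17 to 6.30 CPM in LLW and at 0.687 to 1.44 CPM in HLC. Summed phloem markers were lower in IT_HLC (47.7 to 55.2 CPM) than in IT_LLW (81.3 to 124 CPM) and overlapped between SW_HLC (101 to 144) and SW_LLW (82.1 to 101). Summed epidermis markers were higher in SW_HLC (98.1 to 109 CPM) than in SW_LLW (55.8 to 68.5 CPM) and overlapped between IT_HLC (64.8 to 79.2) and IT_LLW (53.5 to 74.2). Guard cell markers overlapped between the regimes under both labels. The summed leaf mesophyll markers stood at 8412.5 to 16567 CPM in IT_HLC and just above that in IT_LLW, at 16570 to 18650 CPM. They overlapped between SW_HLC (13783 to 16209) and SW_LLW (15223 to 17802). The part of these cell types in the results here and in the difference between labels was not tested. Within the IT label 38 rows were higher and 12 lower, beside 57% and 11.2% of all genes, and within SW 9 and 19, beside 20.5% and 24.4%. Within the first transcript set 17 were higher and 5 lower, beside 24.2% and 13.9%, and within the second 20 and 15, beside 42.8% and 9.68%. Under all 5 scales 5 rows were called higher, namely psaA, psaB, rps14, rps15 and rpl20, and 18 lower. All but 5 rows, which are tRNA rows at or near the lowest value of the table, passed the filter on low counts.

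Without overlap between the 6 HLC and the 6 LLW libraries, 10 rows were higher and 4 lower on the plastid messenger scale, beside 14.6% and 6.04% of all genes tested. The higher ones were psaA, psaB, rps14, psbB, psbD, psbE, psbH, petB, petD and rpoC2. The lower ones were psbA, psbI and the rows of the tRNA genes trnH (ATCG00010) and trnS (ATCG00090).

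**Figure D3:**
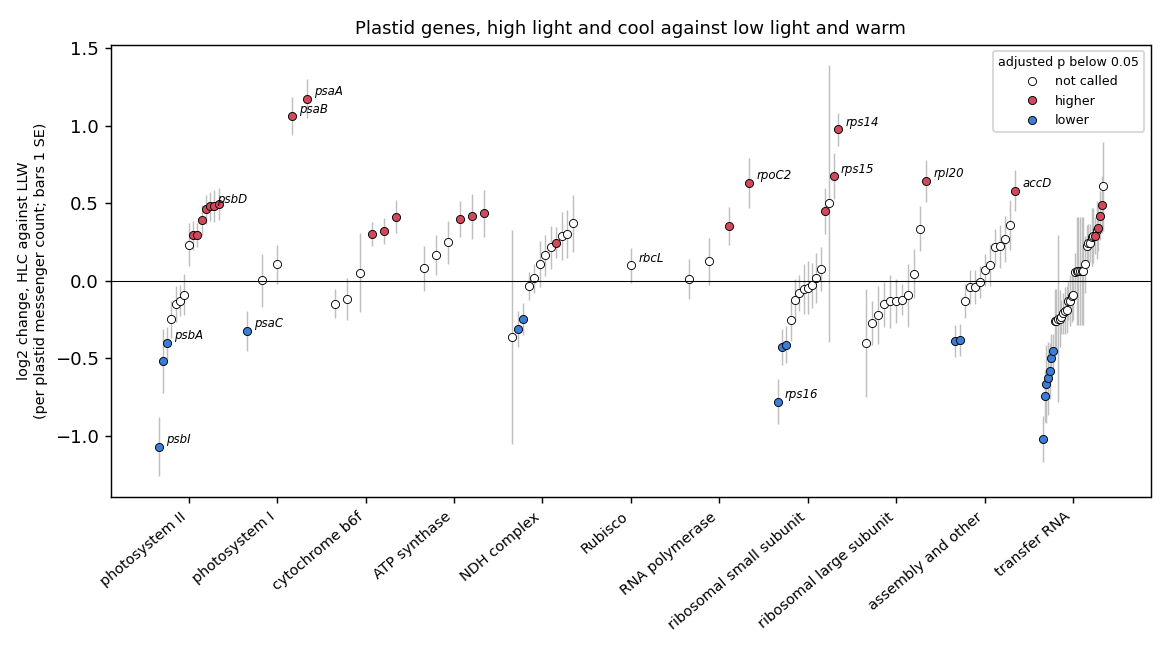
Log2 change from LLW to HLC of each chloroplast row (points), with 1 SE, by class, on the plastid messenger scale; filled points have an adjusted p below 0.05, and the 8 rRNA rows, with SEs of 0.80 to 1.0, are left out. The genes psaA, psaB and rps14 lie near 1, the other photosystem I genes near or below 0.

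The largest called increases lay in the genes of the photosystem I reaction centre. psaA (ATCG00350), which encodes one core protein, stood at 34.01, 35.5 and 31.4 per 1000 plastid messenger counts in IT_LLW and at 27.0, 25.4 and 33.1 in SW_LLW. It stood at 81.0, 66.1 and 70.6 in IT_HLC and at 67.1, 59.8 and 75.4 in SW_HLC. Every HLC library was higher than every LLW library. The log2 change was 1.18 ± 0.13 (SE; adjusted p = 1.2e-07, edgeR), with 1.35 ± 0.18 within the first transcript set and 1.00 ± 0.18 within the second. On the whole-table scale it was 0.87 (adjusted p = 1.7e-05). Within the second set on that scale it was 0.55 (adjusted p = 0.024).

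psaB (ATCG00340), which encodes the partner core protein, rose by 1.06 ± 0.12 (log2; adjusted p = 2.3e-07, edgeR), from 37.8 ± 5.9 (SD, n = 6) per 1000 plastid messenger counts in LLW to 78.6 ± 8.9 in HLC. rps14 (ATCG00330), a small-subunit ribosomal protein gene that follows psaB along the chloroplast genome and is co-transcribed with it, rose by 0.98 ± 0.11 (adjusted p = 1.2e-07), from 6.99 ± 1.08 to 13.7 ± 1.0. These 3 neighbours were called under each of the 5 scales and without any single library. On the whole-table scale the changes within the IT label were 0.45, 0.29 and 0.15 for psaA, psaB and rps14, with adjusted p of 0.054, 0.20 and 0.47, and within the SW label 1.299, 1.24 and 1.19, with adjusted p of 1.6e-05, 2.2e-05 and 9.2e-06. For psaA the difference between the labels on the plastid messenger scale was 0.13 ± 0.25 (adjusted p = 0.67, edgeR), and with whole-table TMM it was 0.85 (0.018), so whether the labels differ rests on the scale.

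The other photosystem I genes did not follow. psaC (ATCG01060), which encodes the protein that carries the terminal iron-sulfur clusters and lies among NDH genes, fell by 0.32 ± 0.13 (log2; adjusted p = 0.036, edgeR). It stood between 1.71 and 2.50 per 1000 plastid messenger counts in LLW and between 1.34 and 2.10 in HLC, so the libraries overlap. The small-subunit genes psaI (0.00 ± 0.17) and psaJ (0.11 ± 0.12) were not called.

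psbA (ATCG00020), which encodes the D1 protein of photosystem II, the subunit that is damaged and replaced fastest in light, was the most abundant row of all. Its promoter in RefSeq's chloroplast sequence (assembly TAIR10.1, Pltd:1530-1559, minus strand), shown because psbA fell while psaA and psaB rose, starts 115 bases before the start codon. Capitals mark both elements of the bacterial promoter type that the plastid-encoded polymerase reads, 18 bases apart.
psbA promoter: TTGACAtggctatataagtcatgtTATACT
The letters TTGACA were also searched in the 250 bases before every protein-coding gene copy of that assembly and found on the gene's own strand in 9 of 86 (10.5%), and on either strand in 15 (17.4%). The match is a description of the letters only.

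psbA stood at 518, 475 and 517 per 1000 plastid messenger counts in IT_LLW and at 539, 559 and 511 in SW_LLW. It stood at 316, 442 and 367 in IT_HLC and at 422, 462 and 355 in SW_HLC, below every LLW library. Its log2 change was -0.40 ± 0.10 (adjusted p = 0.0025, edgeR) on a scale of which psbA is itself a large part. Without psbA in the scale it was -0.72 (adjusted p = 6.0e-04), and with whole-table TMM -0.73 (7.4e-05). Within the first transcript set it was -0.52 (adjusted p = 0.0089) and within the second -0.28 (adjusted p = 0.11). In HLW psbA ran from 410 to 577 and in LLC from 460.5 to 521, and HLW against LLC gave -0.09 ± 0.10 (adjusted p = 0.56).

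psbD (ATCG00270), which encodes the D2 protein, rose by 0.48 ± 0.09 (log2; adjusted p = 1.3e-04, edgeR) from LLW to HLC, from 16.7 ± 2.0 (SD, n = 6) to 23.2 ± 2.7 per 1000 plastid messenger counts. With the scale without psbA it was 0.15 and with the whole-table scale 0.16, neither called (adjusted p = 0.27 and 0.25). psbC (ATCG00280), which encodes the antenna protein CP43 and is co-transcribed with psbD, changed by -0.13 ± 0.10 and was not called.

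The count ratio of psbD to psbC needs no scale. It was 0.368 ± 0.023 (SD, n = 3) in IT_LLW and 0.349 ± 0.015 in SW_LLW, and 0.539 ± 0.017 in IT_HLC and 0.558 ± 0.059 in SW_HLC. The LLW libraries (0.333 to 0.394) and the HLC libraries (0.512 to 0.625) did not overlap. The group means of the other regimes lay between, at 0.443 ± 0.026 in IT_LLC, 0.442 ± 0.018 in SW_LLC, 0.403 ± 0.013 in IT_HLW and 0.462 ± 0.013 in SW_HLW. This ratio was chosen after the values were seen and is given without a test. The unit has several promoters, one of which, before psbD, is known to respond to light, and counts per gene do not separate their transcripts.

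**Figure D4:**
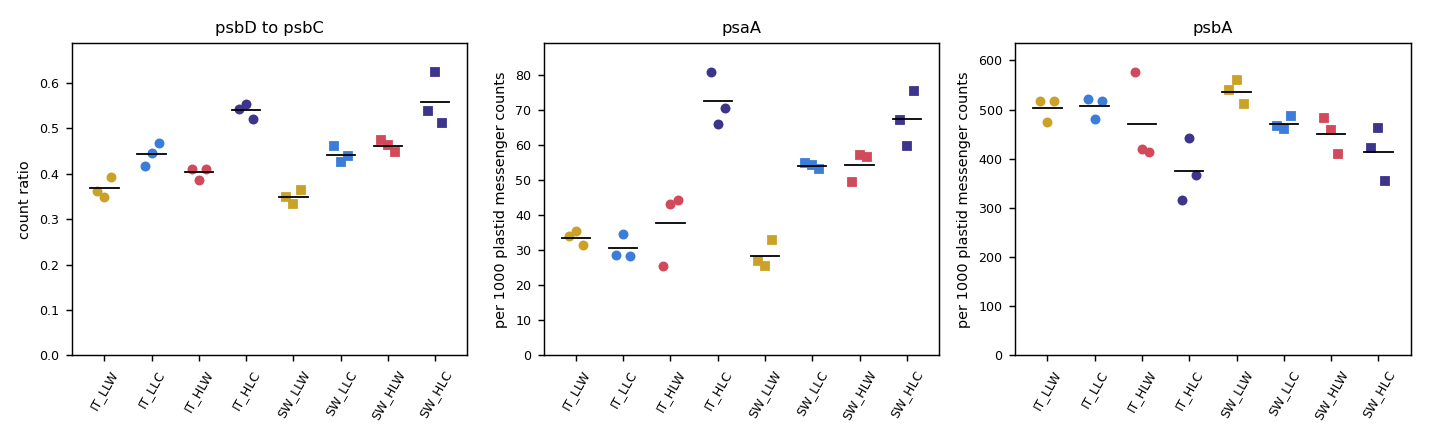
Count ratio of psbD to psbC, and psaA and psbA per 1000 plastid messenger counts, in each library (points; circles IT, squares SW; coloured by regime) with the group mean (line). The ratio is 0.333 to 0.394 in LLW and 0.512 to 0.625 in HLC; psaA is higher and psbA lower in every HLC library than in every LLW library.

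Of the 15 photosystem II rows, 7 rose and 3 fell from LLW to HLC on the plastid messenger scale, and none of the 7 rose under all 5 scales. psbB (ATCG00680), which encodes the antenna protein CP47, went from 28.4 ± 2.6 to 34.8 ± 1.5 per 1000 (log2 0.30 ± 0.08; adjusted p = 0.0027, edgeR), but without psbA in the scale its change was -0.03 (0.79) and with whole-table TMM -0.01 (0.92). The 4 neighbours psbE, psbF, psbL and psbJ, of which psbE and psbF encode cytochrome b559, rose by 0.29 to 0.49. The small-subunit gene psbI (ATCG00080) fell by 1.07 ± 0.19 (adjusted p = 7.1e-05), from 0.537 to 1.08 per 1000 in LLW to 0.260 to 0.400 in HLC, and was called lower under all 5 scales. In the libraries coded with numbers psbI was lower still, at 0.0994 to 0.199 in LLC and 0.0737 to 0.253 in HLW. Its level therefore also differs with the library series. Some other small-subunit genes split by series without overlap over all groups. petL stood at 0.425 to 0.613 per 1000 in the series with letters and at 0.0455 to 0.167 in that with numbers. psaI stood at 0.839 to 0.998 and 0.234 to 0.477, and psbN at 1.94 to 3.55 and 0.861 to 1.496. psbK overlapped. The part of the series in this was not tested.

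Of the 6 cytochrome b6f rows, petB (cytochrome b6), petD (subunit IV) and the small-subunit gene petN rose, by 0.32 ± 0.09, 0.30 ± 0.08 and 0.41 ± 0.11 (log2; adjusted p = 0.0029, 0.0027 and 0.0025, edgeR). Without psbA in the scale the values of petB and petD were -0.0018 and -0.02, and with whole-table TMM petD was at -0.01, so their direction rests on the scale. petA (cytochrome f), petG and petL were not called. Of the 6 ATP synthase rows, atpI, atpH and atpA of 1 transcription unit rose by 0.40 ± 0.12, 0.43 ± 0.15 and 0.42 ± 0.15 (adjusted p = 0.0056, 0.018 and 0.018). The fourth gene of that unit, atpF, at 0.08 ± 0.14, and atpB and atpE of another unit were not called. Without psbA or with the whole-table scale no ATP synthase gene was called higher. atpA lost its call without IT_HLC replicate 1 (adjusted p = 0.056) and without SW_HLC replicate 3 (0.058).

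rbcL (ATCG00490), the large subunit of Rubisco and the next most abundant messenger after psbA, stood at 157 to 196 per 1000 plastid messenger counts in LLW and 149 to 207 in HLC. Its change was 0.10 ± 0.11 (log2; adjusted p = 0.45, edgeR). Of the 12 NDH rows, ndhC rose by 0.25 ± 0.10 (adjusted p = 0.039), and ndhD and 1 copy of ndhB fell by 0.25 ± 0.10 (0.042) and 0.31 ± 0.12 (0.026). ndhC turned to -0.08 without psbA in the scale and to -0.06 with the whole-table scale, neither called. Within the SW label ndhD and that copy of ndhB fell by 0.50 ± 0.15 (0.0083) and 0.62 ± 0.17 (0.0046), and within IT they were at 0.00015 ± 0.14 and -0.0073 ± 0.16. The other 9 NDH rows were not called, among them ndhF (0.37 ± 0.19; adjusted p = 0.092). The call of ndhB was lost when each of 5 libraries was left out in turn, among them IT_HLC replicate 3 (0.071). That of ndhC was lost without IT_HLC replicate 3 (0.11), IT_LLW replicate 3 (0.12) and others, and that of ndhD without SW_HLC replicate 1 (0.086), IT_LLW replicate 2 (0.096) and others.

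Among the genes of plastid gene expression, rpoC2 (ATCG00170) and rpoA (ATCG00740), subunits of the plastid-encoded polymerase, rose by 0.63 ± 0.16 and 0.35 ± 0.12 (log2; adjusted p = 0.0020 and 0.018, edgeR). The call of rpoA was lost without IT_HLC replicate 1 (0.060), and with whole-table TMM neither was called (0.086 and 0.81). rpoB (0.13 ± 0.15) and rpoC1 (0.01 ± 0.13), which lie in 1 unit with rpoC2, were not called. Of the 15 small-subunit rows 3 rose, namely rps14, rps15 and rps2, and 3 fell, namely rps16 and both copies of rps7. rps15 (ATCG01120) was at 1.17 ± 0.21 within the IT label (6.7e-05) and at 0.18 ± 0.21 within SW (0.52). rps16 (ATCG00050) fell by 0.78 ± 0.14 (adjusted p = 9.7e-05). Of the 11 large-subunit rows rpl20 alone was called, at 0.65 ± 0.14 (adjusted p = 3.8e-04), and its HLC and LLW libraries overlapped. accD (ATCG00500), a subunit of the acetyl-CoA carboxylase of fatty acid synthesis, rose by 0.58 ± 0.13 (adjusted p = 8.6e-04), but was not called with whole-table TMM (0.25; adjusted p = 0.24). Within the IT label its change was 1.15 ± 0.19 (2.6e-05) and within SW 0.01 ± 0.19 (0.97). clpP (ATCG00670), a protease subunit, was not called (0.07 ± 0.10). The maturase gene matK was at 0.36 ± 0.16 (adjusted p = 0.060), and both copies of ycf15, at -0.38 and -0.39, were called lower.

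Of the 37 tRNA rows, 4 were higher and 7 lower. The lowest adjusted p was that of trnT (ATCG00390), at -1.02 ± 0.15 (log2; adjusted p = 5.6e-06, edgeR), and trnfM (ATCG00320) was at -0.74 ± 0.17 (7.2e-04). Under IT trnT was at -1.84 ± 0.21 and trnfM at 0.11 ± 0.24, and under SW they were at -0.19 ± 0.21 and -1.59 ± 0.24. The level of trnT was 0.00868 to 0.0428 per 1000 plastid messenger counts in these libraries. Mature tRNAs are short, so such rows can hold reads of precursors and of neighbouring transcripts, and the sources used here do not state whether counting used strand. None of the 8 rRNA rows was called. The changes ran from 0.11 to 1.29 with SEs of 0.80 to 1.0, so a difference of that size was not detectable with this spread.

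HLW against LLC, within the series coded with numbers, sets the second transcript set against the first, so regime and set cannot be told apart. Here 11 rows were called higher (8.27%) and 8 lower (6.02%), beside 12.1% and 23.1% of all genes, and with whole-table TMM 15 and 5, beside 17.5% and 22% of all genes. psaA was at 0.15 ± 0.13 (log2; adjusted p = 0.37, edgeR) and rbcL at 0.02 ± 0.11 (0.93). psbD and psbC both rose, by 0.29 ± 0.09 (adjusted p = 0.016) and 0.33 ± 0.10 (0.014), and were also called with whole-table TMM, but on none of the other 3 scales, such as that without psbA (0.12 and 0.069). accD fell by 0.67 ± 0.13 (adjusted p = 5.3e-04), from 1.12 to 2.60 per 1000 in LLC to 0.878 to 1.44 in HLW, and rpl33 by 0.45 ± 0.10 (0.0015), as did the tRNA row trnF (ATCG00410), by 0.63 ± 0.12 (4.2e-04). The tRNA rows trnT (ATCG00390), trnH and trnM (ATCG00460) were higher, at 1.21 ± 0.15, 0.82 ± 0.18 and 0.53 ± 0.14 (2.3e-06, 0.0015 and 0.0059).

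The mean effect of high light over both temperatures gave 21 rows higher (15.8%) and 19 lower (14.3%), beside 28.7% and 16.4% of all genes, and 9 and 24 with whole-table TMM, beside 22.6% and 25.7%. The first transcript set is in 3 of the 4 low-light groups and 1 of the 4 high-light groups. Its part in these values was not tested. The effect of light is the mean of the changes in HLC against LLW and in HLW against LLC. That of cool growth, given next, sets these same changes against each other. A row that changes only in HLC against LLW therefore moves in both means. A step in light or temperature alone crosses the library series, so how the factors combine cannot be told apart from the series. rps14, psaB and psaA had the smallest adjusted p, at 0.58 ± 0.07, 0.64 ± 0.08 and 0.66 ± 0.09 (log2; 2.5e-06, 3.9e-06 and 4.4e-06, edgeR). Between IT_HLW and IT_LLW the libraries of these genes overlapped. Also called under all 5 scales were atpH, atpI and their neighbours rps2 and rpoC2. psbD rose by 0.39 ± 0.06 (5.6e-05), and psbA fell by 0.24 ± 0.07 (0.011). rps16, rpl33 and psbI were lowest in adjusted p among those that fell, by 0.53 ± 0.10, 0.29 ± 0.07 and 0.51 ± 0.14 (2.6e-04, 0.0026 and 0.0041). In cool growth alone psbI was higher in high light, without overlap. Scaled to plastid messengers, it stood at 0.260 to 0.400 in IT_HLC and 0.1435 to 0.199 in IT_LLC. Under SW it stood at 0.317 to 0.354 in HLC and 0.0994 to 0.120 in LLC. rps16 was higher in SW_HLC than in SW_LLC, but lower in IT_HLC than in IT_LLC. rpl33 was lower in HLC than in LLC under both labels, but higher in IT_HLW than in IT_LLW. These steps cross the library series.

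The mean effect of cool growth over both light levels gave 21 rows higher (15.8%) and 12 lower (9.02%), beside 44.7% and 15.4% of all genes, and 5 and 33 with whole-table TMM, beside 30.4% and 26%. Here the first transcript set is in 3 of the 4 cool and 1 of the 4 warm groups. accD, rpl20 and psaA rose by 0.63 ± 0.09, 0.61 ± 0.10 and 0.51 ± 0.09 (log2; adjusted p = 1.1e-05, 2.1e-05 and 5.6e-05, edgeR) and were called under all 5 scales, with psaB and rps14. In high light alone accD, rpl20 and psaA were higher in cool growth under both labels, without overlap. In low light alone LLC and LLW overlapped for psaA under IT and for accD and rpl20 under SW. Scaled to plastid messengers, the means there were 30.65 and 33.64 for psaA, 1.24 and 1.34 for accD, and 0.367 and 0.410 for rpl20. Under the other label each of these genes was higher in LLC. rps14 was lower in every IT_LLC than in every IT_LLW library. psbC fell by 0.23 ± 0.07 (0.0081) under all 5 scales, whereas psbD was at 0.09 ± 0.06 (0.21). In high light alone the HLC and HLW libraries of psbC overlapped under both labels. Scaled to plastid messengers, its means in HLC and HLW were 45.55 and 43.43 under IT and 39.59 and 38.48 under SW. Under each label psbC was lower in every LLC than in every LLW library, a step that crosses the library series. The tRNA rows trnT (ATCG00390), trnH and trnfM fell by 1.11 ± 0.11, 0.70 ± 0.13 and 0.69 ± 0.13 (3.0e-08, 9.5e-05 and 1.3e-04). In high light alone trnfM was higher in cool growth, without overlap. Scaled to plastid messengers, it stood at 0.0145 to 0.0196 in IT_HLC and 0.0042 to 0.0107 in IT_HLW. Under SW it stood at 0.0103 to 0.0112 in HLC and 0.0025 to 0.0040 in HLW. There trnH was higher under SW and overlapped under IT, and trnT was lower under IT and overlapped under SW. The falls of trnfM and trnH rest on LLC against LLW, which crosses the library series. psbA was at -0.16 ± 0.07 (0.071).

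SW against IT, balanced over library series and transcript sets, gave 2 rows higher (1.5%) and 41 lower (30.8%), beside 26.7% and 5.53% of all genes. With TMM among the plastid messengers the split was 14 and 30, beside 37.5% and 3.23% of all genes, and with whole-table TMM 0 and 66, beside 12.2% and 12%. Under all 5 scales 30 rows were lower and none higher. Among these were both copies of ycf2, ycf15 and rpl23, 1 copy of ycf1, matK, ccsA, rps16 and ndhF. So were rpl36, rps3 and rpl22, and 15 tRNA rows. These calls are on means over all regimes. In LLW alone the SW and IT libraries overlapped for the protein-coding rows just named, other than matK and ycf15. There matK was higher in SW_LLW (5.45 to 6.72 per 1000) than in IT_LLW (3.04 to 3.996), and both copies of ycf15 were lower. ycf2, which encodes part of the protein import motor and lies in the inverted repeat, fell by 0.54 ± 0.08 (log2; adjusted p = 1.0e-04, edgeR) in the copy ATCG01280. In the other copy it stood at 1.13 to 1.51 per 1000 in SW_LLC and SW_HLW, at 1.71 to 2.32 in the other SW groups and at 1.89 to 2.82 in the IT groups. The smallest adjusted p among tRNA rows was that of both trnR copies in the repeat, at -1.20 ± 0.15 and -1.19 ± 0.15 (4.5e-05 each). In LLW the SW and IT libraries of both trnR copies overlapped. psaA was higher by 0.25 ± 0.09 (0.035) on the plastid messenger scale, a call that was lost without IT_HLC replicate 3 (0.053) and without several other single libraries. The tRNA row trnW (ATCG00610) was higher by 0.22 ± 0.08 (0.037), a call lost with whole-table TMM (0.56) and without several single libraries (up to 0.081), and psbA (0.02 ± 0.07) and rbcL (-0.01 ± 0.08) were not called.

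The change from LLW to HLC itself was compared between the labels, as the change in SW minus that in IT. This difference coincides with the transcript sets, since IT goes from the second to the first set and SW from the first to the second. Of the 133 rows 3 had a higher change in SW (2.26%) and 26 a lower one (19.5%), beside 7.02% and 46.2% of all genes, whose median was -0.76 (log2). With whole-table TMM the split turned to 30 and 7, beside 18.7% and 18.4% of all genes. Under all 5 scales 3 protein-coding rows were lower, namely rpl20, clpP and the row ATCG00065 of rps12. No photosystem, cytochrome b6f or ATP synthase row was called on the plastid messenger scale, nor was rbcL (0.18 ± 0.22; adjusted p = 0.50). With whole-table TMM psaA, psaB, psbA and rbcL were called higher, at 0.85, 0.95, 0.77 and 0.89 (0.018, 0.0085, 0.025 and 0.016).

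rpl20 (ATCG00660) stood at 0.188, 0.2005 and 0.144 per 1000 plastid messenger counts in IT_LLW and at 0.660, 0.564 and 0.525 in IT_HLC. In SW_LLW it stood at 0.405, 0.379 and 0.445, and in SW_HLC at 0.296, 0.267 and 0.3525. Its level rose under the IT label, by 1.72 ± 0.20 (log2; adjusted p = 3.1e-07, edgeR), and was at -0.42 ± 0.19 under SW (0.078), a difference of -2.14 ± 0.27 (3.0e-06). clpP rose under IT by 0.78 ± 0.15 and fell under SW by 0.64 ± 0.15, a difference of -1.42 ± 0.21 (1.5e-05). Within a transcript set the direction was shared for rpl20, at 0.51 ± 0.19 (0.042) in the first and 0.78 ± 0.19 (0.0020) in the second, and clpP was not called in either (0.14 ± 0.15 and -0.0045 ± 0.15). accD and rpoB had differences of -1.14 ± 0.27 (0.0015) and -1.13 ± 0.31 (0.0044), which were not called with whole-table TMM (adjusted p = 0.34 and 0.30).

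**Figure D5:**
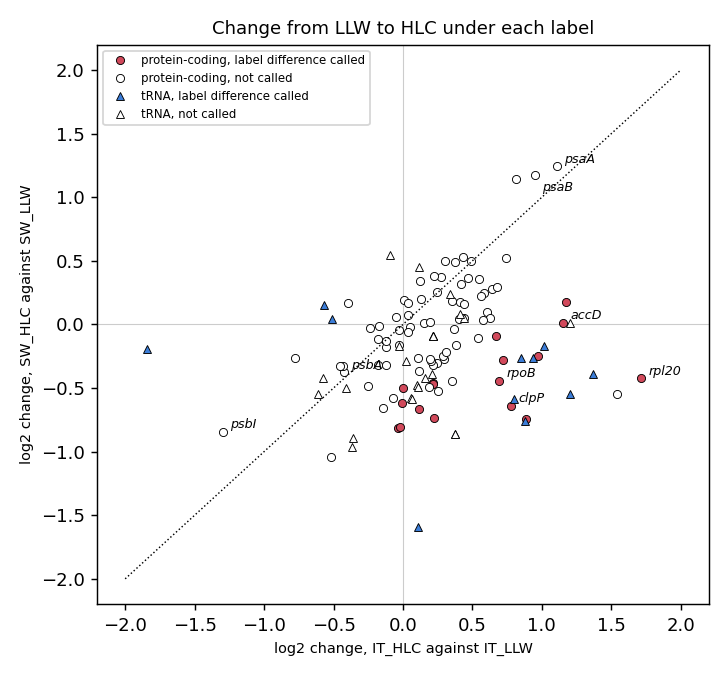
Log2 change from LLW to HLC under the IT label (horizontal) and under the SW label (vertical) for the protein-coding (circles) and tRNA rows (triangles) on the plastid messenger scale; filled points have a called difference between the labels, and the dotted line marks equal change. The genes psaA and psaB lie near the line at about 1, while rpl20, clpP, accD and rpoB lie below it.

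The nuclear genes for plastid transcription and RNA handling were read on the whole-table TMM scale. Of 31 members of 4 lists, 25 rose and 1 fell from LLW to HLC (edgeR), beside the 28.5% and 27.3% of all genes given above. All 3 phage-type polymerase genes rose in the mean of both labels. SCA3, which encodes the chloroplast enzyme, stood at 1.72, 2.48 and 2.32 CPM in IT_LLW and at 9.48, 5.79 and 9.16 in SW_LLW. It stood at 29.6, 45.0 and 19.7 in IT_HLC and at 15.5, 22.6 and 16.0 in SW_HLC, above every LLW library. Its log2 change was 2.30 ± 0.17 (adjusted p = 1.2e-09, edgeR), and the change was smaller under SW than under IT, with a difference of -2.14 ± 0.34 (6.1e-05). AT5G15700 rose by 1.55 ± 0.23 (1.1e-05) and MGP3, for the mitochondrial enzyme, by 0.96 ± 0.19 (2.9e-04). Both were higher in every IT_HLC than in every IT_LLW library, but under SW they overlapped. AT5G15700 stood at 3.66, 3.89 and 4.91 CPM in SW_LLW and at 3.61, 3.53 and 4.99 in SW_HLC. MGP3 stood at 7.72, 5.79 and 9.96 CPM in SW_LLW and at 8.40, 10.5 and 13.0 in SW_HLC.

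Of the 6 sigma factor genes 4 rose, namely SIGA, SIG2, SIG4 and SIGF, by 0.42 to 0.88 (log2). SIGE, the factor known for the light-responsive psbD promoter, stood at 17.4 to 28.0 CPM in LLW and 28.8 to 46.99 CPM in HLC, with a change of 0.50 ± 0.22 (adjusted p = 0.060, edgeR), which was not called. SIGC was at 0.10 ± 0.10 (0.42). Of the 12 polymerase-associated proteins 11 rose, and PTAC14 was at -0.22 ± 0.12 (0.12). These are means of both labels, and for 3 of the 12 the change was called lower in SW than in IT, beside 18.4% of all genes. Of those that rose, PDE312, FLN1, PTAC12, PTAC2, TRX z and MURE overlapped between SW_LLW and SW_HLC. PDE312 stood at 12.66, 8.38 and 12.75 CPM in SW_LLW and at 8.93, 10.39 and 8.27 in SW_HLC. Of the 10 RNA-binding proteins and nucleases 7 rose, with emb2746, which encodes the ribonuclease J of the chloroplast, at 1.81 ± 0.12 (2.1e-10) and the RNA-binding protein gene CP29 at 1.42 ± 0.13 (1.9e-08). RBP31, for another RNA-binding protein, fell by 0.59 ± 0.17 (0.0049). In HLW against LLC 4 members were higher and 10 lower, beside 17.5% and 22% of all genes on this scale. High light gave 18 and 1, beside 22.6% and 25.7%, and cool growth 17 and 0, beside 30.4% and 26%. SW against IT gave 0 and 19, beside 12.2% and 12%, and the difference between labels 5 and 7, beside 18.7% and 18.4%. How these genes bear on the chloroplast transcripts was not tested.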

How the data were processed

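Leaf RNA of 24 libraries, 3 in each of 8 groups, was depleted of rRNA and made into TruSeq libraries, per the labels' protocols. HISAT, StringTie, DESeq2 and the TAIR10 build are named in the submitters' processing notes; the sources used here do not state whether counting used strand. The deposited table holds whole-number counts per gene made by the authors, with a lowest value of 1. Library totals ran from 10967425 to 17467653, so counting error is small beside the spread between libraries for all but the rarest rows.

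Members were all rows whose identifier starts with ATCG. Members, classes, lists and tests were chosen with earlier results of these data known. Shares and counts per 1000 plastid messenger counts were computed per library, and class shares were given without a test. Changes were fitted with edgeR 4.0.16 (quasi-likelihood, robust; limma 3.58.1, R 4.3.3) over 17714 genes in 8 groups, with the total of the 88 protein-coding plastid rows as library size and Benjamini-Hochberg adjustment over all genes, called below 0.05. The filter on low counts asked for 10 counts in a library of median size in at least 3 libraries; chloroplast rows stayed in beside it, and 128 of 133 passed. The other 4 scales were all plastid counts, TMM among plastid messengers, plastid messengers without psbA, and TMM over the whole table. Nuclear lists were read on the last of these. DESeq2 1.42.0, no filter, 1 subtracted from every count, the replicate number as a block, and leaving out each library in turn were also tried.

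Named rows were, in HLC against LLW, the 2 of smallest adjusted p and the most abundant of each class with 10 fixed genes, and elsewhere the 3 of smallest adjusted p in each direction; rows named beyond these complete a class or transcription unit and were chosen after their values were seen. On simulated counts for HLC against LLW with 17714 genes, 28 of 30 plastid and 132 of 170 nuclear genes changed 2-fold were called, and 4 of 17514 unchanged genes. The changed plastid genes were drawn from the less abundant rows, without psbA. The simulation therefore does not show how calls behave when psbA, a large part of the scale, changes. Replicates of a group differed by more than sampling noise in all 24 pairs (chi-square per degree of freedom 8.18 to 343). Of 19 pairs of inverted-repeat copies, 18 were above the lowest value of the table, and 13 of these had summed counts within 1.2-fold of each other. In single libraries the ratio of the copies went further apart, up to 11167 for ndhB and down to 0.0019 for trnA.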

Additional observations from a re-analysis of the deposited data

Results flagged for a closer look

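For 29 chloroplast rows, those called in the comparison of the labels above, the change from LLW to HLC differed between the ecotype labels by the test of the difference itself (edgeR, change in SW minus change in IT, log2, plastid messenger scale). As that difference coincides with the transcript sets described above, label and set cannot be told apart. Among the protein-coding rows called under all 5 scales it was -2.14 for rpl20 (adjusted p = 3.0e-06), -1.63 for the row ATCG00065 of rps12 (1.0e-04) and -1.42 for clpP (1.5e-05). With whole-table TMM these were -1.43, -0.91 and -0.70.

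The other 14 protein-coding rows were not called with whole-table TMM. The differences were -1.22 for matK (adjusted p = 0.0037, edgeR), -1.14 for accD (0.0015), -1.13 for rpoB (0.0044), -0.998 for ycf3 (0.0013) and -0.995 for rps15 (0.0083). They were -0.96 for the row ATCG00905 of rps12 (0.0052), -0.78 and -0.79 for the 2 copies of rps7 (0.0080 each), -0.78 for 1 copy of rpl2 (0.024) and -0.76 for ndhA (0.042). They were -0.69 for 1 copy of rpl23 (0.047), -0.67 for rpl33 (0.0089), -0.61 for 1 copy of ndhB (0.034) and -0.50 for ndhD (0.046). With whole-table TMM rpl23, rpl33, ndhB and ndhD turned to 0.0063, 0.04, 0.11 and 0.21. The change of accD was 1.15 within the IT label and 0.01 within SW, that of rps15 1.17 and 0.18, and that of rpoB 0.69 and -0.44.

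Among tRNA rows the difference was 1.65 for trnT (ATCG00390), 0.72 for trnP and 0.55 for trnW, and -1.76 for trnE, -1.75 for trnQ, -1.70 for trnfM and -1.64 for trnF. These 7 were also called with whole-table TMM, at 2.36, 1.45, 1.28, -1.08, -1.04, -0.99 and -0.92. It was -1.39 for trnK, -1.24 for 1 copy of trnA, -1.20 for trnC, -1.18 for trnY and -1.11 for trnD, which were not called with whole-table TMM. The calls of trnP and trnW were lost without several single libraries, with adjusted p of up to 0.11 for each.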

How the results depend on the processing

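Of 52 called values of named rows, 43 kept their call without each single library in turn. Counts of called chloroplast rows without single libraries ran from 35 to 49 in HLC against LLW, 13 to 27 in HLW against LLC, 30 to 42 for light, 26 to 37 for temperature, 31 to 53 for SW against IT and 22 to 35 for the difference between labels. HLC against LLW gave 50 calls within the IT label, 28 within the SW label, 22 within the first transcript set and 35 within the second, each from fewer samples than the 45 calls of the whole comparison, and the cause of these differences was not tested. SW against IT gave 66 with whole-table TMM. Without psbA in the denominator the log2 ratios of class shares were 0.73 for photosystem I, -0.093 for cytochrome b6f and -0.030 for ATP synthase. They were -0.30 for the NDH complex, -0.24 for rbcL, -0.019 for the polymerase and -0.20 for the remaining genes. For the small and large ribosomal subunits they were 0.16 and -0.45. With equal weight for every gene they were 0.36 for photosystem I, 0.0061 for photosystem II, 0.13 for cytochrome b6f and 0.090 for the small subunit. Among single genes ndhC turned to -0.084 without psbA and -0.064 with whole-table TMM, petD to -0.025 and -0.012, and petB to -0.0018 without psbA. With the replicate number as a block HLC against LLW gave 45 calls, as without it, and none of the 52 values lost its call; same-numbered samples correlated at a median of -0.00135 over 84 pairs of libraries, so the numbers were not taken as pairs. Without the 2 libraries highest in plastid rRNA, a setting chosen after seeing the data, ndhB, ndhC and ndhD in HLC against LLW and psaA in SW against IT were no longer called. The spread of the rRNA rows, not depth, limits what can be seen in them.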
